A study of Mus musculus with 2 samples.

Results

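Cxcl9-high myeloid cells were the barcodes of a mononuclear myeloid gate that carried at least 3 Cxcl9 UMIs (unique molecular identifiers, each standing for 1 captured transcript). The gate asked for at least 1 UMI of Csf1r, Cd68 and Ccr2 together, no UMI of Flt3 or Ccr7, and low counts of genes of type 1 dendritic cells, Kupffer cells, neutrophils, B cells, T cells and plasmacytoid dendritic cells. It held 102 such cells, called members here, of 21211 barcodes kept from both libraries: 71 in the NAV library and 31 in the MOCK library. The CD45+ leukocytes came from intrahepatic cholangiocarcinoma, the bile duct cancer that arises within the liver, raised in C57BL/6 mice by hydrodynamic injection of transposon vectors for Myr-AKT and YAPS127A, which all mice of both groups carried. NAV mice received 30 mg/kg of NAV2729, an inhibitor of ARF GTPase activation, every other day for 7 days from day 7, and MOCK mice were left without it. Cells were captured on the BD Rhapsody platform, tumours were pooled, and each group gave 1 library. A pool held 6 tumours by the design text and 3 by the protocol, so its size is uncertain and no animal can be told from another.

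Because each group was 1 library, no test between NAV and MOCK was possible and no p-value is given. Ratios carry exact 95% intervals that cover counting error only and treat each UMI as independent, although many genes sat in a few cells. Members had medians of 4817 UMIs and 1937 genes in NAV and of 6280 UMIs and 2377 genes in MOCK, while all barcodes kept had medians of 2178 and 3882 UMIs. The 2 libraries shared 5 barcodes, none of them a member, and 1 member of each library had a doublet score above 0.25.

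Interferon-gamma is a cytokine made mainly by T cells and natural killer (NK) cells. It binds the receptor encoded by Ifngr1 and Ifngr2, whose signal passes through the kinases Jak1 and Jak2 to GAS elements in target genes, Irf1 among them. Macrophages exposed to it make the chemokines CXCL9 and CXCL10, which draw cells bearing the receptor CXCR3, and they make guanylate-binding proteins (GBPs), immunity-related GTPases (IRGs) and MHC class II. Type I interferons act on ISRE elements through a complex that holds STAT2 and IRF9 and share many targets, GBPs and Cxcl10 among them, so the genes alone do not name the cytokine a cell met. No cytokine exposure was measured here.

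The promoters of 5 genes used below as markers or examples of the interferon response, and that of the antiviral gene Rsad2, are shown with their motif content. Each line holds the 250 bases before the annotated start site, from RefSeq on GRCm38.p6, 5′ to 3′ on the gene's strand. Capitals mark GAS matches (TTCNNNGAA) and ISRE-type matches, 2 copies of GAAA that lie 2 bases apart (TTTC where read on the opposite strand). Both strands were searched, and no 2 matches overlap in these windows.
Cxcl9: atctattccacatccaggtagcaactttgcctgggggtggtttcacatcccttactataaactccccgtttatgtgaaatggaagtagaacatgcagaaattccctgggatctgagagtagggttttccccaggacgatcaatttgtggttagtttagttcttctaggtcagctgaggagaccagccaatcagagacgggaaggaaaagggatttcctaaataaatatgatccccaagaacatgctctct
Cxcl10: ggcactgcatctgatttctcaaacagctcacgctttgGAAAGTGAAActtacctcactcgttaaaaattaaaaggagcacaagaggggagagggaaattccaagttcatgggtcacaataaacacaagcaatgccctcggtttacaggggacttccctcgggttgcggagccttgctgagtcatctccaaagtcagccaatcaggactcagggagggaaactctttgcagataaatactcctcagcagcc
Gbp2: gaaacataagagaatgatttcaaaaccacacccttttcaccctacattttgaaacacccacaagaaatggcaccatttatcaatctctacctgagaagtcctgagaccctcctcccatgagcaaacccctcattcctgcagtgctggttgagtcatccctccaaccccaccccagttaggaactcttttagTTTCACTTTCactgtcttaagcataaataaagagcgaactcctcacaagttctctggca
Gbp5: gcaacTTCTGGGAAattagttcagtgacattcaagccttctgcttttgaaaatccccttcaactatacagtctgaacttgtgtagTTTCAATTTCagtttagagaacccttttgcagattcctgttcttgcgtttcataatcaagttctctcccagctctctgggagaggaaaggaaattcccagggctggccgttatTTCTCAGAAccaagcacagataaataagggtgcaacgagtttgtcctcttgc
Slamf8: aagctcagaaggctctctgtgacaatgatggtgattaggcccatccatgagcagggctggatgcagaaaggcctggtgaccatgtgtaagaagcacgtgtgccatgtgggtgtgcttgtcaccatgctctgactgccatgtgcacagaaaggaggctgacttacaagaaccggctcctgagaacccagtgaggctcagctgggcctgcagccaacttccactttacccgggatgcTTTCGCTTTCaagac
Rsad2: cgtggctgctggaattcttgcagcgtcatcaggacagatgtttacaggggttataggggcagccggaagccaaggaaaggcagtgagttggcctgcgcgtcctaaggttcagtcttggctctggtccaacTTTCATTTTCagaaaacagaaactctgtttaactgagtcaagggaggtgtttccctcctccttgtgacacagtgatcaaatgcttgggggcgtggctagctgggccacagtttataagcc
The Cxcl9 window lies at chr5:92328080-92328329 on the minus strand and holds neither motif. The Cxcl10 window, chr5:92348890-92349139 on the minus strand, has an ISRE-type match whose first base is at -213 from the start site. Gbp2 (chr3:142620413-142620662, plus strand) and Slamf8 (chr1:172590569-172590818, minus strand) have ISRE-type matches at -59 and -15. Gbp5 (chr3:142496684-142496933, plus strand) has GAS matches at -245 and -52 and an ISRE-type match at -165, and Rsad2 (chr12:26456453-26456702, minus strand) has an ISRE-type match at -120. Among 27025 genes with such a window, 8.13% held a GAS match and 3.46% an ISRE-type match. Of 11 GBP and IRG genes with a window, 6 held a GAS match and 10 an ISRE-type match, and of 20 type I interferon antiviral genes 4 and 11 did. The COPI coat and ARF list had 2 and 1 of 19. A match describes letters in this window and says nothing of binding, and elements farther from the start were not searched. Batf2 is named only.

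Members made up a larger share of the NAV library. They were 0.680% of 10441 kept barcodes in NAV (exact Clopper-Pearson 95% interval 0.531 to 0.857) and 0.288% of 10770 in MOCK (0.196 to 0.408), a log2 ratio of 1.24 (0.61 to 1.90) or 2.36-fold (1.53 to 3.73). Within the myeloid gate the shares were 2.11% of 3357 cells in NAV and 0.712% of 4356 in MOCK, a log2 ratio of 1.57 (0.94 to 2.23). The gate itself took 32.2% of kept barcodes in NAV and 40.4% in MOCK. Gate cells with any Cxcl9 UMI were 3.66% in NAV and 1.74% in MOCK, a log2 ratio of 1.07 (0.65 to 1.50). The larger share in NAV was not particular to members. Barcodes with at least 3 Cxcl9 UMIs that a gate stopped were 80 of 10441 kept in NAV and 37 of 10770 in MOCK. Of these, 55 and 25 were stopped by a dendritic-cell gate.

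Cxcl9 counts chose the members, so their values are a description. The median member carried 7 Cxcl9 UMIs in NAV and 5 in MOCK, and the highest carried 46 and 34. Just inside the threshold, at 3 UMIs, lay 6 NAV cells and 9 MOCK cells, and just outside it, at 2 UMIs, lay 15 and 8. At 5 to 9 UMIs there were 26 NAV cells and 8 MOCK cells, at 10 to 19 there were 20 and 5, and at 20 or more 11 and 4. NAV cells thus outnumbered MOCK cells from 4 UMIs upward and not at 3. MOCK members were the more deeply sequenced. For a comparison at equal depth each cell was thinned to 2000 UMIs, which left out 552 NAV and 410 MOCK gate cells, and gate and threshold were applied again to the thinned counts, where fewer cells meet an exclusion. The shares of gate cells with at least 3 Cxcl9 UMIs were then 1.73% in NAV (58 of 3357 gate cells) and 0.366% in MOCK (18 of 4916 gate cells), a log2 ratio of 2.24 (1.45 to 3.09).

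**Figure D1:**
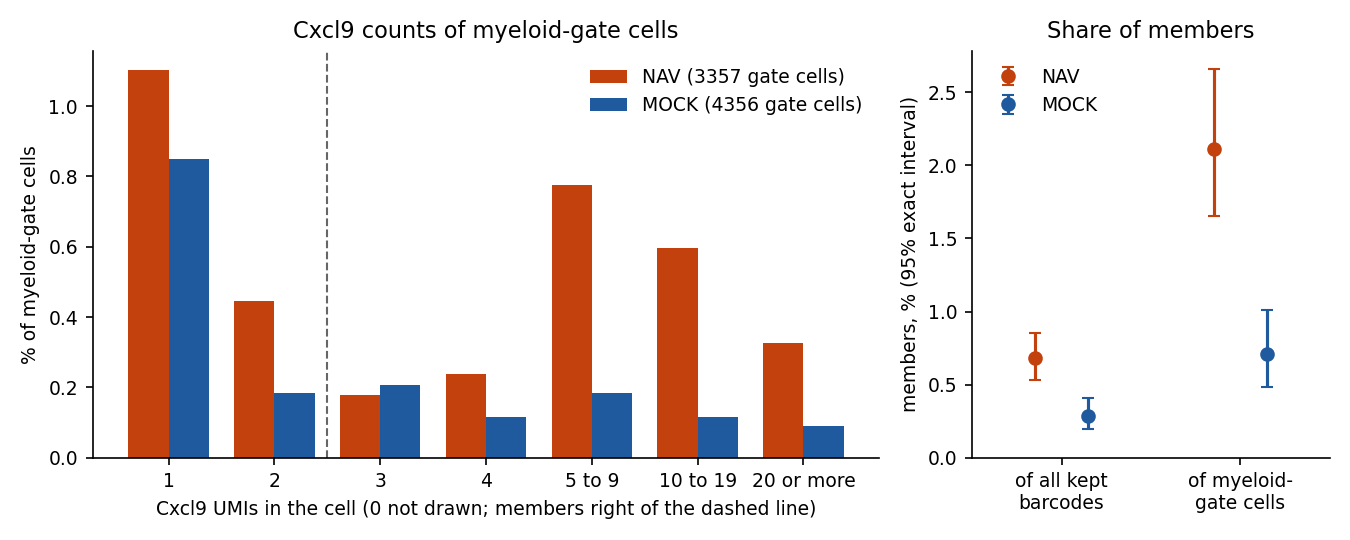
Left, the share of myeloid-gate cells (percent) at each Cxcl9 UMI count in NAV (orange) and MOCK (blue), with members right of the dashed line. Right, members as a percentage of kept barcodes and of gate cells, with exact 95% intervals; in both denominators the NAV point (0.680% and 2.11%) lies above the MOCK point (0.288% and 0.712%).

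Members were not the only source of Cxcl9. They held 35.6% of the 2387 Cxcl9 UMIs of the NAV library and 31.6% of the 843 of MOCK. Barcodes stopped by a dendritic-cell gate (Flt3, Xcr1 and Clec9a, or Ccr7) held 50.5% in NAV and 44.5% in MOCK, in 91 and 55 barcodes with any Cxcl9 UMI. Gate cells with 1 or 2 Cxcl9 UMIs added 2.81% and 6.29%. In both libraries, then, the dendritic-gate barcodes held more Cxcl9 UMIs than the members.

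The label was checked on its other 5 markers and on cell identity. Gbp2, a guanylate-binding protein, had a UMI in 55 of 71 NAV members and 22 of 31 MOCK members. Slamf8, a macrophage surface receptor, had one in 39 and 8, and Cxcl10 in 25 and 12. Iigp1, an IRG that attacks the vacuoles of intracellular pathogens, had a UMI in 13 and 6, and the transcription factor Batf2 in 15 and 2. None of the 5 was seen in 8 NAV members and 6 MOCK members, at least 2 were seen in 51 and 17, and all 5 in 2 and 1. Of gate cells with no Cxcl9 UMI (Cxcl9-0 cells, 3234 in NAV and 4280 in MOCK), 81.4% and 79.1% had none of the 5.

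Most members carried macrophage genes. The complement genes C1qa, C1qb and C1qc together reached 3 UMIs in 53 of 71 NAV members (74.6%) and 28 of 31 MOCK members (90.3%), against 42.0% and 69.2% of Cxcl9-0 cells. Ly6c2, a marker of classical monocytes, was seen in 21 NAV members and 5 MOCK members. The 10 macrophage markers, none of them used by the rule, summed to 9820 CPM (UMIs scaled to a total of 1000000) in NAV members and 12888 in MOCK members, with none at 0, against 7225 and 11753 CPM in Cxcl9-0 cells, log2 ratios of only 0.44 and 0.13. The 8 classical monocyte markers summed to 3207 and 2034 CPM, against 5422 and 4607 in Cxcl9-0 cells. The rule itself capped 1 of the T cell, 1 of the B cell, 4 of the 9 Kupffer cell, 3 of the 7 type 1 and 1 of the type 2 dendritic cell markers, so their sums are partly fixed by it. T cell markers summed to 15 UMIs over all NAV members and 1 over all MOCK members, B cell markers to 30 and 14, NK cell markers to 21 and 11, and Kupffer cell markers to 6 and 12. Of type 2 dendritic cell markers there were 138 UMIs in NAV members and 21 in MOCK members, with 1 and 2 of 8 markers at 0, and their level over Cxcl9-0 cells was 1.51 in NAV and 0.55 in MOCK on the log2 scale. Type 1 dendritic cell markers summed to 126 and 93 UMIs and hepatocyte markers to 81 and 91. Of 8 biliary tumour cell markers 7, keratins among them, were at 0 in the members of each library. The other, Epcam, which some dendritic cells also express, had 17 UMIs in NAV members and 1 in MOCK members, and the sum of the 8 had log2 ratios of 2.74 and -0.52 over Cxcl9-0 cells.

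Cells with dendritic genes lay inside the rule. Cd209a, Mgl2, Clec10a, Epcam and Clec9a, genes that mark dendritic cells, summed to at least 2 UMIs in 11 NAV members and 2 MOCK members. The share in Cxcl9-0 cells was 3.93% in NAV and 3.22% in MOCK. Without these 13 members, 2 of 17 interferon-gamma pathway genes and 1 of 16 class I genes were past 2-fold higher in NAV members. With them, 4 of 17 and 4 of 17 were. The GBP and IRG median was then 0.90 and the type I median -0.50. The subsets differed in other genes too, and not alike in both libraries. Members with C1q and no Ly6c2, 39 in NAV and 24 in MOCK, had 944 and 284 CPM of Gbp2, while those with Ly6c2, 21 and 5, had 1471 and 464 CPM. Of the members with Ly6c2, 14 in NAV and 4 in MOCK also had C1q. Iigp1 ran in opposite orders, at 371 CPM with C1q alone and 89.7 CPM with Ly6c2 in NAV, and at 152 and 501 CPM in MOCK. The MOCK order rests on 23 and 27 UMIs, from 6 members in all, 1 of which held 21. The monocyte gene Chil3 stood at 2458 and 2116 CPM in the members with Ly6c2. The 11 NAV members with neither had 547 CPM of Gbp2, no Iigp1 UMI and 770.1 CPM of Mgl2, a lectin of type 2 dendritic cells and some macrophages. That Mgl2 level rests on 38 UMIs. Most of these members were also among those with at least 2 dendritic UMIs, a sum that itself includes Mgl2.

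Set beside Cxcl9-0 cells of their own library, members were high in GBPs, IRGs and MHC class II and low in classical monocyte markers. The rule used Cxcl9 in the same cells, so these values describe the members and are no test. Of 9341 genes measured, 136 (1.46%) were at least 2-fold higher in members in both libraries and 183 (1.96%) at least 2-fold lower in both. Gbp2 stood at 1050.1 CPM in NAV members and 334 in MOCK members, against 32.8 and 18.4 CPM in Cxcl9-0 cells, log2 ratios of 5.00 and 4.19. Iigp1 had log2 ratios of 6.06 in NAV and 5.76 in MOCK, and Cxcl10 of 3.88 and 3.66. Of the GBP and IRG list, 11 of 13 measured genes were past 2-fold higher in both libraries, against 1.81% of 10744 genes at the minimum of 20 UMIs used for lists, with a list median of 2.72 in NAV and 2.12 in MOCK, against -0.13 and -0.02 over all genes.

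Antigen presentation followed the same direction. H2-Aa, an MHC class II chain, stood at 7011 CPM in NAV members and 4560.2 in MOCK members, against 2189 and 1697 CPM in Cxcl9-0 cells. Cd74, the invariant chain that guides class II through the cell, stood at 7266 and 4407 CPM in members, against 2307 and 1669 CPM. Of 9 class II genes 6 were past 2-fold higher in both libraries, with medians of 1.66 in NAV and 1.39 in MOCK. Of 17 MHC class I and immunoproteasome genes 2 were, with medians of 0.96 and 0.81. At least 10 UMIs of H2-Aa, H2-Ab1, H2-Eb1 and Cd74 together were seen in 62 NAV members and 28 MOCK members.

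Type I interferon genes were also above Cxcl9-0 cells, 12 of 26 past 2-fold in both libraries, with medians of 0.92 in NAV and 1.50 in MOCK. Ifit2 had log2 ratios of 2.49 in NAV and 2.86 in MOCK, and Ifi205 of 3.36 and 3.28. Other high genes were Serpina3g, an intracellular protease inhibitor (4.89 in NAV and 4.29 in MOCK), Dnase1l3, a secreted DNase (5.06 and 4.18), and Ch25h, which makes 25-hydroxycholesterol (2.57 and 3.62). Ly6a had ratios of 3.54 and 2.80, and the checkpoint ligand gene Cd274 of 1.93 and 1.19. Ccl17 had ratios of 3.26 and 3.63, from 5 NAV members and 2 MOCK members. GBPs, the IRGs Tgtp1 and Tgtp2, H2-Q6 and H2-Q7, and Ifit3 and Ifit3b have close copies, so counts of these single genes are uncertain where reads could be shared.

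The low genes included Arg1, the arginase of tumour macrophages. It had 0 UMIs over all NAV members and 4 over all MOCK members (19.1 CPM), against 287 and 127 CPM in Cxcl9-0 cells. At a floor of 3 counts over all members, Arg1 was at least 35.3-fold lower in NAV members, and its log2 ratio in MOCK was -2.74. Spp1, the matrix protein osteopontin, had log2 ratios of -3.30 in NAV and -2.30 in MOCK, and Cxcl1, a neutrophil chemokine with 1 UMI in the members of each library, of -4.54 and -4.18. S100a8 stood at -2.83 and -3.56, Vcan at -1.58 and -3.94, and Chil3 at -1.17 and -1.54. Of the classical monocyte markers 5 of 7 measured were past 2-fold lower in both libraries. The COPI coat and ARF list, which holds the drug's target family, had medians of -0.01 in both libraries and 0 of 20 genes past 2-fold in both.

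**Figure D2:**
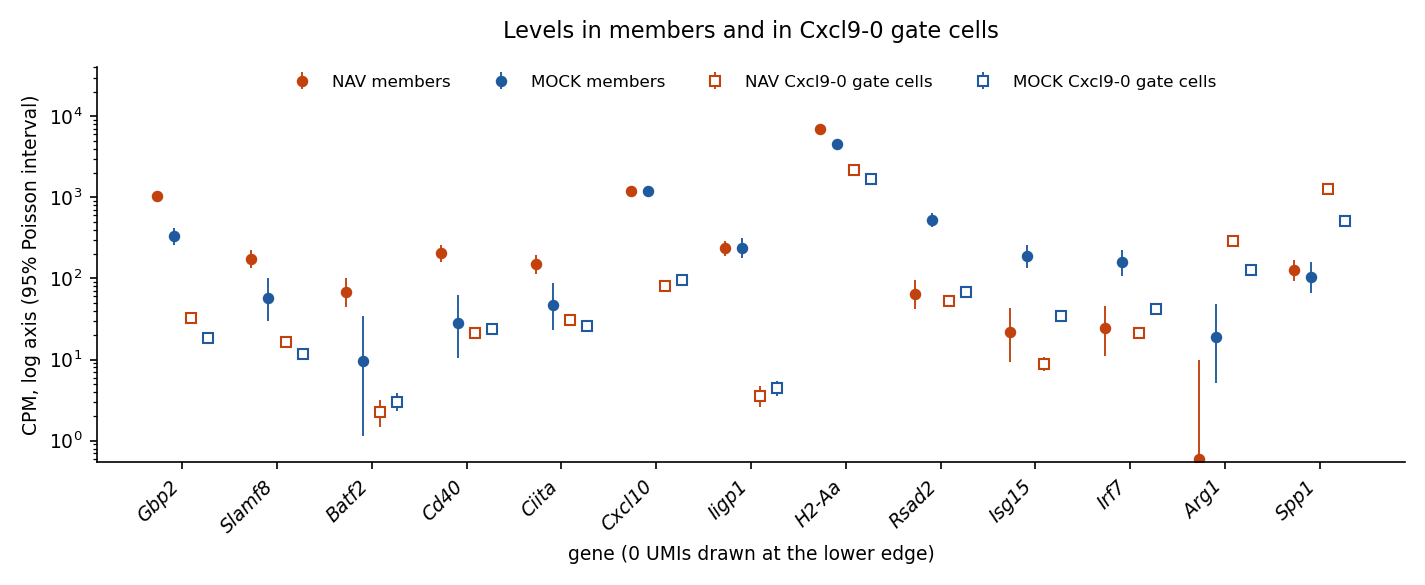
Levels of 13 genes (CPM of summed UMIs, log axis, bars are 95% Poisson intervals) in members (filled circles) and Cxcl9-0 gate cells (open squares), NAV in orange and MOCK in blue. Gbp2 stands at 1050.1 CPM in NAV members and 334 in MOCK members, both above their Cxcl9-0 cells, while Arg1 and Spp1 lie below them.

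Along the Cxcl9 count, GBP and IRG levels were graded in NAV. The list summed to 269 CPM in NAV cells with 0 Cxcl9 UMIs, 1440.2 at 1 or 2, 1826 at 3 or 4, 1902 at 5 to 9 and 3629 at 10 or more. In MOCK the sums were 256, 510.1, 1272, 789 and 1816 CPM. The last 3 bins held 14, 26 and 31 NAV cells and 14, 8 and 9 MOCK cells, so the MOCK order rests on few cells. H2-Aa was already at 5651 CPM in NAV and 4207 in MOCK at 1 or 2 UMIs, against 2189 and 1697 at 0. It reached 7159 CPM in NAV at 10 or more UMIs, but in MOCK it stood at 5996 at 3 or 4, 5099 at 5 to 9 and 2604 at 10 or more. The type I list had a narrower range in NAV, with 2293, 2582, 2677, 3049 and 2993 CPM, and a high of 6481 CPM in the MOCK bin of 3 or 4 UMIs. That sum weighs its most abundant genes most.

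**Figure D3:**
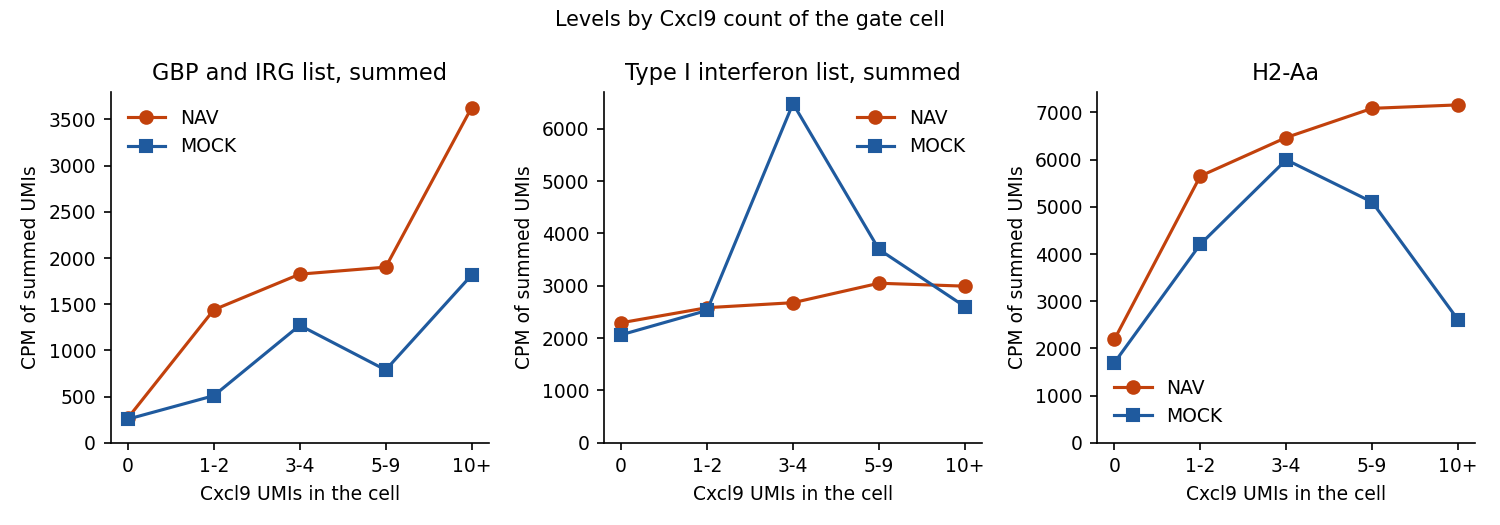
Summed levels (CPM) of the GBP and IRG list, the type I interferon list and H2-Aa in gate cells grouped by their Cxcl9 UMIs, NAV in orange circles and MOCK in blue squares. The GBP and IRG sum is highest at 10 or more UMIs in both libraries (3629 CPM in NAV and 1816 in MOCK), and the type I sum has its highest value, 6481 CPM, in the 14 MOCK cells with 3 or 4 UMIs.

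Within the members at full depth, NAV cells carried more Gbp2, Slamf8, Batf2, Cd40 and Ciita than MOCK cells, and similar Cxcl10 and Iigp1. Of 2204 genes with at least 50 UMIs, 63 (2.86%) were at least 2-fold higher in NAV members and 104 (4.72%) at least 2-fold lower, with a median log2 ratio of 0.03. At the minimum of 20 UMIs used for lists, 4.77% of 4424 genes were past 2-fold higher and 7.50% past 2-fold lower. These shares are the background for list counts below that use all members at full depth, with no Cxcl9-0 ratio subtracted. List counts under other settings have another background, which is not given here. In sums over cells, more cells of a kind among the members and more RNA per cell cannot be told apart. Slamf8 stood at 174 CPM in NAV members (64 UMIs) and 57.3 in MOCK members (12 UMIs), a log2 ratio of 1.60 (0.70 to 2.63). Gbp2 had a ratio of 1.65 (1.28 to 2.04), and Batf2, with 25 and 2 UMIs, of 2.83 (0.82 to 5.95). After thinning, these 3 ratios were 0.41, 0.89 and 0.31, short of 2-fold. Ratios after thinning, here and below, are of members chosen again on the thinned counts, so both the cells and the depth changed. Cxcl10 stood at 1197 CPM in NAV members and 1199 in MOCK members, a ratio of -0.00 (-0.23 to 0.23), and Iigp1 at 236 and 239 CPM, a ratio of -0.02 (-0.53 to 0.52). At full depth the markers therefore split, 3 of 5 past 2-fold higher in NAV and 2 near equal. The near-equal ratios depended on single cells. Without the UMIs of the top cell in each library, Cxcl10 and Iigp1 both stood at 0.35.

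Of the receptor, kinases and transcription factors of the interferon-gamma pathway, 4 of 17 measured genes were past 2-fold higher in NAV members and 2 past 2-fold lower, with a median of 0.51. The receptor chains Ifngr1 and Ifngr2 had ratios of -0.48 (-0.95 to 0.00) and 0.15 (-0.36 to 0.69), and the kinase Jak1 of 0.03. Jak2 had a ratio of 1.08 (0.20 to 2.04), and of 0.62 without the members that held dendritic UMIs. Irf8, a myeloid transcription factor, stood at 608 CPM in NAV members and 334 in MOCK members, a ratio of 0.86 (0.47 to 1.27). Ciita, the master activator of MHC class II genes, stood at 152 and 47.8 CPM, a ratio of 1.67 (0.69 to 2.81). Irf1 stood at 220 and 110 CPM, a ratio just over 1 (0.32 to 1.74) that turned to -0.82 after thinning and was 0.85 without the members that held dendritic UMIs.

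The 2 low genes of that list belong to the type I arm. Irf7, which amplifies type I interferon genes, had 9 UMIs in NAV members and 33 in MOCK members, a ratio of -2.69 (-3.94 to -1.59). Stat2, a transcription factor of type I signalling, had 36 and 47 UMIs, a ratio of -1.20 (-1.87 to -0.54) that was 0.48 after thinning. The ratios of Irf2, Irf5, Irf9, Nlrc5, Socs1 and Socs3 lay between 0.11 and 0.61, and Stat3 stood at -0.73 (-1.11 to -0.34). The feedback inhibitor Socs1 had only 8 and 4 UMIs.

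The GBP and IRG list had a median of 0.79, with 5 of 12 measured genes past 2-fold higher in NAV and 0 lower. After thinning, 1 of 8 measured genes was past 2-fold higher and the median was 0.35, below that of MHC class II (0.94). Gbp5, which takes part in inflammasome assembly, had 41 UMIs in NAV members and 7 in MOCK members, a ratio of 1.73 (0.56 to 3.14). Gbp3 had a ratio of 1.15 (0.48 to 1.88) and the IRG Igtp of 1.25 (-0.19 to 3.02). Irgm1 and Irgm2, IRGs that regulate the others, had ratios of 0.50 and 0.09. Gbp2, Gbp3, Gbp4, Gbp5 and Gbp7 together were seen in 63 of 71 NAV members and 25 of 31 MOCK members, with medians of 6 and 3 UMIs. The per-cell counts of the libraries overlapped widely.

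MHC class II genes had a median ratio of 0.68, with 1 of 8 past 2-fold higher and 1 lower. H2-Aa had a ratio of 0.62 (0.51 to 0.73) and Cd74 of 0.72 (0.61 to 0.83). H2-DMb2, a chain of the peptide exchanger H2-DM, had 60 UMIs in 16 NAV members and 7 UMIs in 4 MOCK members, a ratio of 2.28 (1.15 to 3.66). That ratio was 0.49 without the 13 members that held dendritic UMIs. H2-DMa, the other chain, had 35 UMIs in NAV members and 56 in MOCK members, a ratio of -1.49 (-2.15 to -0.86), but it was also lower in NAV among Cxcl9-0 cells (43.0 CPM in NAV and 145 in MOCK). Less the ratio of those cells, H2-DMa stood at 0.27 and the list median at 0.25.

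In the class I pathway, 4 of 17 genes were past 2-fold higher and 1 lower, with a median of 0.29. Less the ratio of Cxcl9-0 cells, 2 of 17 were past 2-fold higher and 0 lower, with a median of 0.07. Among Cxcl9-0 cells Tap1 stood at 104 CPM in NAV and 63.6 in MOCK. The peptide transporter genes Tap1 and Tap2 had ratios of 1.12 (0.55 to 1.72) and 1.41 (0.11 to 2.97), and Tapbpl, a peptide editor, of 2.15 (0.93 to 3.67). Without the members that held dendritic UMIs, Tap1 stood at 0.87 and Tap2 at 0.96. Psmb10, an immunoproteasome subunit, stood at 62.4 CPM in NAV members and 224 in MOCK members, a ratio of -1.85 (-2.63 to -1.10), while Cxcl9-0 cells had 44.7 and 112 CPM. H2-Q6 and H2-Q7 had ratios of -0.48 and -0.28.

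Among costimulatory and checkpoint genes 1 of 9 was past 2-fold. Cd40, the receptor through which CD4 T cells license antigen-presenting cells, had 75 UMIs in 29 NAV members and 6 UMIs in 5 MOCK members. It stood at 203 and 28.7 CPM, a ratio of 2.83 (1.64 to 4.32), against 21.5 and 23.7 CPM in Cxcl9-0 cells. The 11 NAV members that held dendritic UMIs had 30 of the 75 UMIs, and the 2 such MOCK members had 0 of the 6. With the counts of these same members thinned to 2000 UMIs, 26.1% of NAV members and 6.67% of MOCK members had a Cd40 UMI, while 6.90% and 9.72% of B cells, which express the gene, had one. Cd274 had a ratio of 0.82 (0.20 to 1.48), Cd80 of 0.39 and Cd86 of 0.12. Lgals9 and Vsir had ratios of -0.87 and -0.23.

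Gbp2 and Cxcl10 can be set against B cells in the same way, since free RNA gives UMIs to cells that do not express a gene. B cells (at least 2 Cd79a UMIs) had medians of 1485 UMIs in NAV and 1304 in MOCK, and 145 and 72 of them were deep enough. After thinning, Gbp2 had a UMI in 63.8% of NAV members and 43.3% of MOCK members, against 3.45% and 5.56% of B cells, and Cxcl10 in 31.9% and 33.3%, against 0.690% and 1.39%. The member shares lay above that level in both libraries.

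Of 23 measured type I interferon antiviral genes, 8 were past 2-fold lower in NAV members and 0 higher, with a median of -0.35, while 15 did not pass. Less the ratio of Cxcl9-0 cells, 3 of 23 were past 2-fold lower. Rsad2, the antiviral enzyme viperin, had 24 UMIs in 9 NAV members and 111 UMIs in 8 MOCK members, a ratio of -3.02 (-3.73 to -2.38). Cmpk2, a nucleotide kinase gene beside Rsad2, had 8 and 46 UMIs, a ratio of -3.34 (-4.63 to -2.24). Isg15, a ubiquitin-like modifier, had 8 and 40 UMIs, a ratio of -3.14 (-4.44 to -2.02), and Ifit3 had 28 and 58 UMIs, a ratio of -1.87 (-2.57 to -1.19). These counts sat in few cells: Rsad2, Isg15, Cmpk2, Ifit1 and Ifit3 together reached 3 UMIs in 6 of 71 NAV members and 9 of 31 MOCK members, and the highest MOCK member held 42.4% of the MOCK sum of 288. After thinning, with members chosen again on the thinned counts (58 in NAV and 18 in MOCK), Rsad2 stood at 0.90 and Ifit3 at 2.07. The list median was then 0.50, while Isg15 stood at -2.01. Among members with at least 5 Cxcl9 UMIs, 57 in NAV and 17 in MOCK, the list had 1 of 16 genes past 2-fold higher, 2 lower and a median of -0.03. There Rsad2 stood at -1.12, Cmpk2 at -0.77 and Ifit3 at -0.04. Ifitm3 and Zbp1 had ratios of 0.81 and 0.83.

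**Figure D4:**
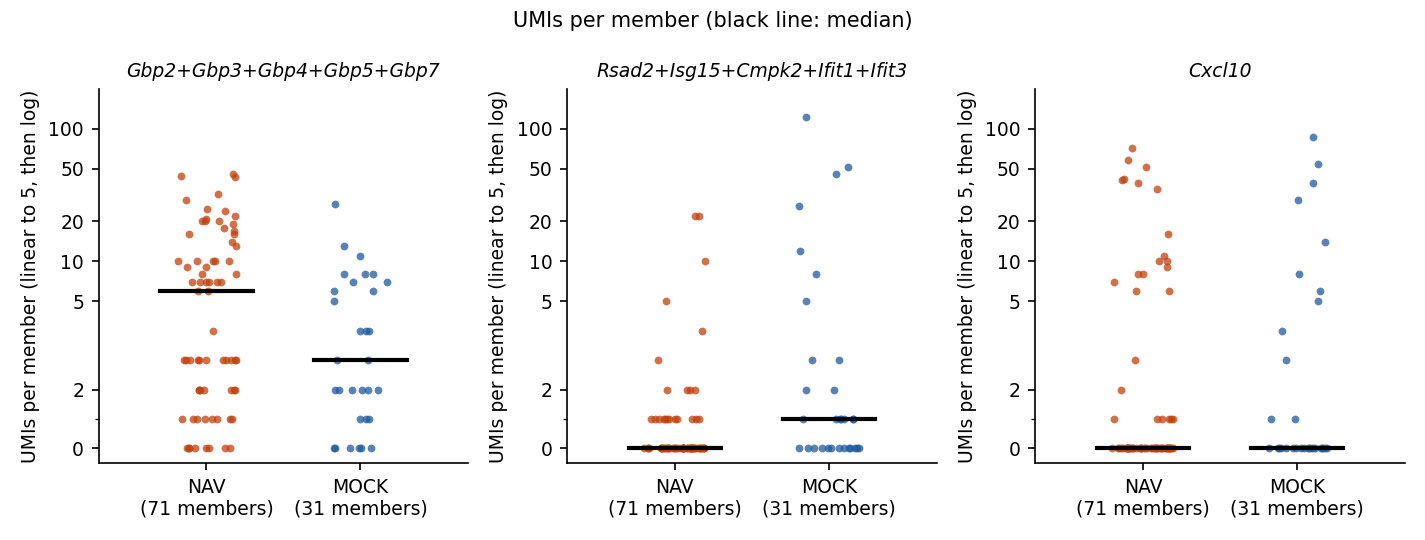
UMIs per member of 5 GBP genes, 5 type I interferon antiviral genes and Cxcl10 (axis linear to 5 UMIs, then log), each point 1 member, NAV in orange and MOCK in blue, black lines at the medians. The GBP medians are 6 in NAV and 3 in MOCK, and the type I counts of 3 or more come from 6 NAV members and 9 MOCK members.

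The cytokine list had a median of 0.34 over 8 genes and the other chemokines one of -0.25 over 11. Il1rn, the interleukin-1 receptor antagonist, stood at 743 CPM in NAV members and 291 in MOCK members, a ratio of 1.35 (0.95 to 1.78). Il12b, a subunit of interleukin-12, had 16 UMIs in 4 NAV members and 0 in MOCK members, a bound of 3.03-fold with 3 counts put in place of 0. Without the members that held dendritic UMIs the bound was 0.79 on the log2 scale. Tnf had a ratio of 0.77 (-0.02 to 1.63) and Osm of 0.49. Ccl4 stood at 445 CPM in NAV members and 974 in MOCK members, a ratio of -1.13 (-1.44 to -0.83), and Ccl5 at 404 and 487 CPM, a ratio of -0.27 (-0.64 to 0.11). Cxcl2 and Ccl7 had ratios of 0.79 and 0.66.

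Of the remaining lists, 2 of 8 complement genes were past 2-fold higher, C3 at 2.05 (1.13 to 3.11) and Cfb at 1.70 (0.53 to 3.10), with a median of 0.00. Antimicrobial and metabolic effectors had a median of 0.55, inflammasome genes of -0.18, lipid-associated macrophage genes of -0.07, hypoxia and glycolysis genes of 0.16 and dissociation stress genes of -0.23. The COPI coat and ARF list had 0 of 16 genes past 2-fold and a median of -0.03, with Arf1 at -0.17 (-0.49 to 0.16), Arf6 at 0.14 (-0.23 to 0.53) and Copa, a coat subunit, at 0.44 (-0.21 to 1.11). Cell cycle genes had the lowest median, -1.24, with 5 of 8 past 2-fold lower, and -2.04 without the members that held dendritic UMIs. Less the ratio of Cxcl9-0 cells, the cell cycle median was -0.69, with 2 of 8 past 2-fold lower. Mki67 or Top2a had a UMI in 7 of 71 NAV members and 9 of 31 MOCK members, against 6.90% and 13.3% of Cxcl9-0 cells. The highest MOCK member held 55.6% of the 54 UMIs of these 2 genes in MOCK members.

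**Figure D5:**
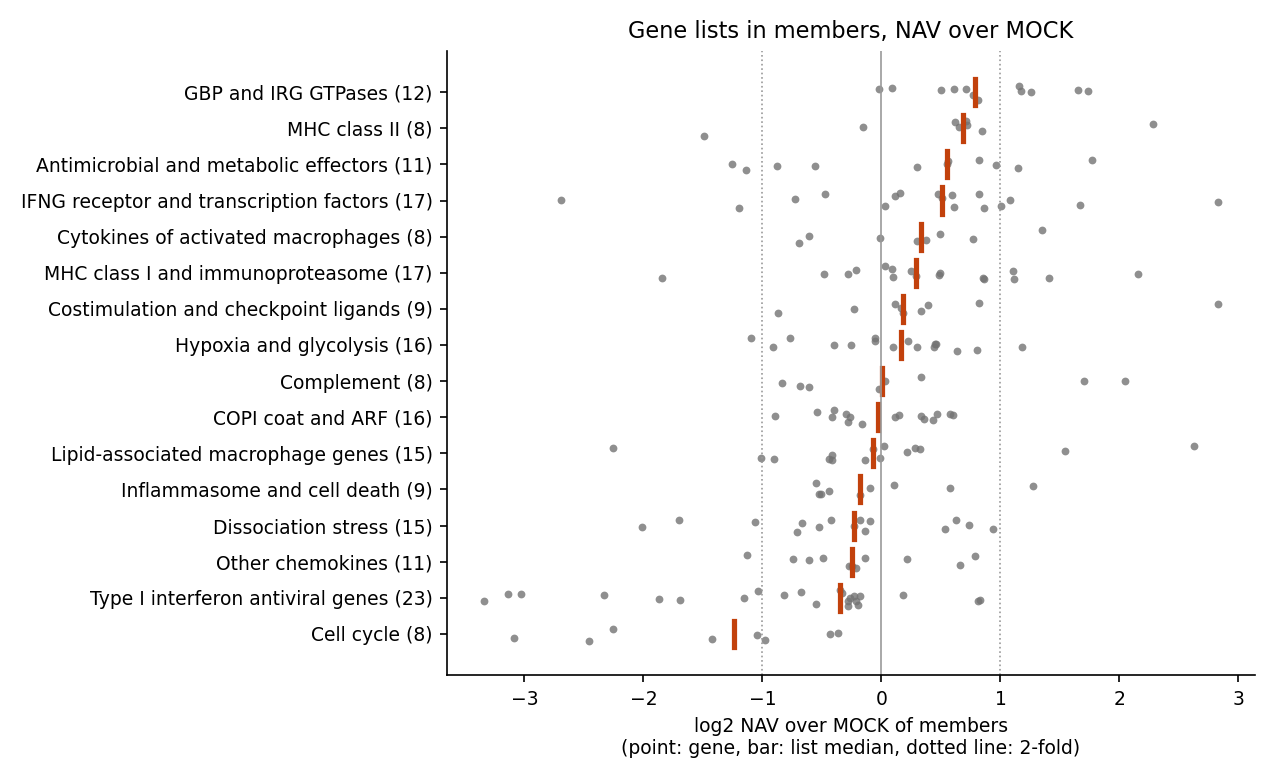
Log2 ratio of NAV over MOCK in members for each measured gene (grey points) of 16 lists, with the list median (orange bar), the number of genes in brackets, and dotted lines at 2-fold. At full depth the GBP and IRG list has the highest median (0.79, but 0.35 after thinning) and the cell cycle list the lowest (-1.24).

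Outside the lists, the genes highest in NAV members relative to their counting error, beside Gbp2, Cd40, H2-DMb2 and C3, included Calhm6, an ion channel gene (100 UMIs in NAV members and 11 in MOCK members, ratio 2.37), Icam1, an adhesion molecule (115 and 19 UMIs, ratio 1.78), and Jarid2, a chromatin regulator (60 and 6 UMIs, ratio 2.51). Il1r2, the decoy interleukin-1 receptor, had 62 and 9 UMIs, a ratio of 1.97, and of 1.27 without the members that held dendritic UMIs. After thinning, Calhm6, Jarid2, Il1r2, Ciita, Cd40, H2-DMb2, Tapbpl, Tap1, Cfb and Ly6c2 stayed past 2-fold, from 1.19 for Tap1 to 2.12 for Cfb. Icam1 (0.24), Il1rn (0.27), Tap2 (0.31), Gbp3 (0.46), Gbp5 (0.48), C3 (0.73), Gpnmb (0.05), Mgl2 (0.63) and Plac8 (0.61) did not. Some high genes sat in few cells: Mgl2 had 71 UMIs in 8 NAV members and 5 in 1 MOCK member, and Gpnmb 87 UMIs in 11 NAV members and 8 in 2 MOCK members. The monocyte genes Ly6c2 and Plac8 had ratios of 2.12 and 1.32. The share of members with Ly6c2 was larger in NAV, while Plac8 was seen in 36.6% of NAV and 38.7% of MOCK members. Some high genes were also higher in NAV among Cxcl9-0 cells. There Ly6c2 stood at 598 CPM in NAV and 307 in MOCK, Plac8 at 1333 and 637, Gpnmb at 708 and 375, and C3 at 102 and 49.8. Cd40 and Icam1 were not higher in NAV among those cells.

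All 9 of the lowest genes outside the type I list were also lower in NAV among Cxcl9-0 cells. Ctsd, a lysosomal protease, stood at 92.3 CPM in NAV members and 439 in MOCK members, and at 124 and 808 CPM in Cxcl9-0 cells. Fau, a ribosomal protein precursor, stood at 125 and 473 CPM in members and at 105 and 534 CPM in Cxcl9-0 cells. Cebpa, a myeloid transcription factor, stood at 271 and 812 CPM in members and at 181 and 544 CPM in Cxcl9-0 cells. Less the Cxcl9-0 ratio, these 3 genes stood at 0.45, 0.43 and 0.0091, and 34 of 2204 genes were past 2-fold lower. Fosb, Cd72, Hcls1, Bsg and Erp29 stood between -0.50 and -0.20 by that measure, and Fkbp5 at -1.09. Cd40, Slamf8 and Isg15 stayed past 2-fold, at 2.97, 1.12 and -1.18, while Gbp2 stood at 0.81.

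Members were set beside the dendritic-gate barcodes with at least 3 Cxcl9 UMIs, 55 in NAV and 25 in MOCK, which the rule had set apart. C1qb, a macrophage gene, was higher in members, with log2 ratios of 2.08 in NAV and 0.38 in MOCK. Il12b was lower in members, with a ratio of -3.02 in NAV and 0 UMIs in MOCK members against 10 in MOCK dendritic-gate barcodes. Cxcl10 was lower in members, at -0.57 in NAV and -1.70 in MOCK, and so was Cd40, at -0.58 and -2.49. Gbp2 stood at 0.28 in NAV and -0.90 in MOCK.

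Ifng, the gene of interferon-gamma itself, was read in T and NK cells of the same libraries (at least 2 UMIs of Cd3d, Cd3e and Cd3g together, or of Ncr1 and Klrb1c). It had 105 UMIs in 754 NAV T and NK cells and 36 in 537 MOCK T and NK cells, which held 82.0% and 83.7% of each library's Ifng UMIs. It stood at 42.9 CPM in NAV and 15.8 in MOCK, a log2 ratio of 1.44 (0.88 to 2.03), from 56 and 20 cells with a UMI. Cxcr3, the receptor for CXCL9 and CXCL10, had a ratio of 0.39 (-0.08 to 0.86) in the same cells. Members had 0 Ifng UMIs in NAV and 1 in MOCK. Whether the Ifng level bears on the share of members was not tested, and with 1 library per group a treatment effect cannot be told apart from other differences between the pools.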

How the data were processed

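Each library was deposited as a matrix of raw UMI counts, not normalized. The submitters' processing notes name Cell Ranger, STARsolo 2.7.10a and fastp, with mm10 as the build, and give no roles. Of 31253 genes, 31107 identifiers were found in GENCODE vM21 (GRCm38, equivalent to mm10).

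The filter asked for 500 UMIs, 200 genes and a mitochondrial share below 20%, and removed 24 NAV and 93 MOCK barcodes. Doublet scores came from Scrublet in scanpy 1.11.5, and no cell was removed by them. The gate allowed fewer than 2 UMIs of Xcr1 and Clec9a, fewer than 3 of Clec4f, Timd4, Cd5l and C6, and at most 1 of Csf3r and Cxcr2 and of Cd79a, Cd3e and Siglech. UMIs were summed over cells and divided by the total (CPM), and ratios got an exact 95% interval conditional on the summed count (scipy 1.17.1). Where one count was 0, the ratio with 3 counts in its place is given and called a bound. Its exact interval can reach nearer to an equal level. Past 2-fold means a log2 ratio of at least 1 in size. NAV over MOCK used genes with at least 50 UMIs (20 for lists), and the rule's own genes were left out. Ratios over Cxcl9-0 cells used genes with at least 50 UMIs in the cells compared in each library.

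Genes named were all label markers and interferon-gamma pathway genes, the 3 highest and 3 lowest of other lists, and the 12 highest and lowest genes by the interval bound nearest to 0, of which the text gives some; 2 genes are not reported here. The members, lists and rules were chosen with earlier results of these data known. The ratio code was tested on simulated data.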

Additional observations from a re-analysis of the deposited data

Results flagged for a closer look

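For 5 genes the ratio of members over Cxcl9-0 cells pointed in opposite directions in the libraries, past 2-fold in each; these differences were not tested. Bcl2, an inhibitor of apoptosis, stood at log2 -1.13 in NAV (7 UMIs in members) and 1.07 in MOCK (13 UMIs). Xcl1, a chemokine of T and NK cells, stood at -1.65 in NAV, a bound from 0 UMIs in members, and at 1.68 in MOCK, where its 8 UMIs lay in 1 member. Jade1 stood at -2.60 in NAV (1 UMI) and 1.98 in MOCK (13 UMIs in 9 members). Gimap4, a lymphocyte GTPase gene, stood at -1.02 in NAV, a bound from 0 UMIs, and at 1.66 in MOCK, where its 7 UMIs lay in 1 member. Incenp, a chromosomal passenger protein of dividing cells, stood at -2.24 in NAV (2 UMIs) and 1.49 in MOCK (20 UMIs in 9 members), beside the higher share of MOCK members with Mki67 or Top2a.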

How the results depend on the processing

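No paired analysis was possible because each group was 1 library. Of 23 results that answer a comparison, 232 of 267 values under the alternatives stayed within the limits set and 35 moved. Among these results no ratio past 2-fold and no ratio of shares changed sign, but 2 smaller medians did: the type I median, -0.35 in NAV over MOCK, was 0.50 after thinning, and the interferon-gamma pathway median over Cxcl9-0 cells in MOCK, 0.50, was -0.06 with at least 5 Cxcl9 UMIs asked for. Of 2534 values of single genes and other lists, 8 changed sign after a main value past 2-fold. The cause was not tested in any case. A change of cells, depth or UMI minimum also changed the number of genes measured. Those numbers are not given here, so gene counts under such changes cannot be read as shares.

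With at least 5 Cxcl9 UMIs asked for, members held 33.5% of Cxcl9 UMIs in NAV and 26.0% in MOCK, 60 genes were past 2-fold lower in NAV and the MHC class II median was 0.92. Without cells that held lymphoid or neutrophil UMIs, the shares of Cxcl9 UMIs were 23.4% and 19.3%, the class II median 0.48, and the class II median over Cxcl9-0 cells 1.58 in MOCK. With cells thinned to 2000 UMIs, the log2 ratio of member shares was 2.09 of kept barcodes and 2.24 of gate cells. Members then held 46.2% and 42.4% of Cxcl9 UMIs, 30 genes were past 2-fold higher and 17 lower in NAV, and 102 were lower than in Cxcl9-0 cells in both libraries. The GBP and IRG median was then 0.35 and the class II median 0.94, and Stat2 stood at 0.48, Irf1 at -0.82, Rsad2 at 0.90 and Ifit3 at 2.07.

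Median-of-ratios scaling put class II over Cxcl9-0 cells at 1.78 in NAV. Equal weight per cell gave 319 of 9341 genes lower in both libraries and class II medians of 1.89 in NAV and 1.53 in MOCK. Less the Cxcl9-0 ratio, 34 of 2204 genes were past 2-fold lower in NAV and the class II median was 0.25. H2-DMa then stood at 0.27, Ctsd at 0.45, Fau at 0.43 and Cebpa at 0.0091. With no minimum of UMIs, which let more genes in, 711 genes were past 2-fold higher and 1169 lower in NAV, and 276 higher in members in both libraries. With a minimum of 100 UMIs, 22 were higher and 32 lower, and the GBP and IRG median over Cxcl9-0 cells was 2.37 in NAV.

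The alternatives that left out cells with dendritic or cycling UMIs, or the top cell of a gene, were chosen after seeing the data. Without dendritic UMIs, members held 28.6% of Cxcl9 UMIs in NAV and class II over Cxcl9-0 cells was 1.76 in NAV. Without cycling UMIs, they held 32.3% in NAV and 23.3% in MOCK, and class II stood at 0.79 in NAV over MOCK and at 1.80 over Cxcl9-0 cells in NAV. Precision is limited by the 31 MOCK members and their 209420 UMIs, against 71 members and 368552 UMIs in NAV.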
